A study of Mus musculus with 10 samples.

Results

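The AP-1 and ATF3 transcription factors described here are 10 genes, found by symbol among the 54343 gene rows of an RNA sequencing table: the Fos family genes Fos, Fosb, Fosl1 and Fosl2, the Jun family genes Jun, Junb and Jund, and the related genes Atf3, Batf3 and Maff. The 10 genes were chosen on the difference between the lines in these same libraries, so their values are a description and carry no test. The study compared cultured cells of the mouse tumour line MC38.T4 (5 libraries) with those of parental MC38 (5 libraries). MC38.T4 descends from MC38 cells that received the vector huMSLN.pcDNA3.1 for human mesothelin and were sorted as clones (MC38.huMSLN.34). Those cells grew in C57/BL6 mice, the tumours were taken out at about day 25, and their cells went through 10 passages in a dish before 1 clone with low mesothelin became the line. Its genotype label reads low mesothelin expression, and that of MC38, bought from a vendor, reads wild type. Both lines were kept in the same serum-containing RPMI1640 medium. MC38.T4 is therefore 1 clone, and transfection, growth in mice, recloning and passage cannot be told apart as sources of a difference from the uncloned parent. Nothing in the labels tells if the 5 libraries of a line come from separate cultures, so the p-values reflect the spread among these samples alone, and that spread may be technical.

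AP-1 is a pair of basic leucine zipper proteins, a Jun protein bound to a Fos protein, to another Jun protein or to an ATF relative, that attaches to short DNA motifs in promoters and enhancers. Many of these genes are immediate-early genes: growth factors, stress and cell detachment switch them on through MAP kinases without new protein synthesis, and FOSL1 is known for its high level in invasive tumour cells. ATF3 is a stress-induced factor that mostly acts as a repressor, BATF3 pairs with JUN proteins and is known for its part in dendritic cell development, and MAFF is a small MAF protein without a transactivation domain.

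The start regions of 9 of the 10 genes were in a RefSeq promoter table of build GRCm38.p6, which runs from 250 bases before to 50 bases after each annotated start. 4 of them are shown, written 5′ to 3′ on the strand of the gene: Atf3, whose level differed most between the lines, Jun, whose level differed least among the expressed genes, and Fos and Maff, which carry the motifs discussed beside them. Capitals mark TGACG, the core of the cAMP response element to which ATF and CREB proteins and Jun-ATF pairs bind, on either strand, TGACNTCA, the full element with its Jun variant, and TGATGNAA, the composite element of C/EBP and ATF proteins.
Atf3 at chr1:191183284-191183583, minus strand: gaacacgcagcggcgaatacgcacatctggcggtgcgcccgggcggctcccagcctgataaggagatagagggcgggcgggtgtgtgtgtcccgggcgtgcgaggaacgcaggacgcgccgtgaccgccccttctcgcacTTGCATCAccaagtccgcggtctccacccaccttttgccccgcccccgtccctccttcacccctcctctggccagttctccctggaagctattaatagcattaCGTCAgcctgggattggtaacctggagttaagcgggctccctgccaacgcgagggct
Fos at chr12:85473640-85473939, plus strand: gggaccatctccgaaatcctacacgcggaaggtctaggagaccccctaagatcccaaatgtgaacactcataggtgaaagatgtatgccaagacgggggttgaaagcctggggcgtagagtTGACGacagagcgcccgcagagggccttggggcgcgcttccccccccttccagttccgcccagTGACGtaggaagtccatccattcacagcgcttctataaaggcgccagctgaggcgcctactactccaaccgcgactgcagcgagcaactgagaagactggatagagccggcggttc
Jun at chr4:95052173-95052472, minus strand: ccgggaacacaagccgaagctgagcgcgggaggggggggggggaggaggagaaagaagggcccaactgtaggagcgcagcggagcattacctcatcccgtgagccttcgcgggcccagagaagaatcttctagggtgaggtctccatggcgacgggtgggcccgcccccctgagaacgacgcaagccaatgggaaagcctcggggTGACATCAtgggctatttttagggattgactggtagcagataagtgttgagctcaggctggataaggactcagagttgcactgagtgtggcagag
Maff, second of 3 annotated starts, at chr15:79347270-79347569, plus strand: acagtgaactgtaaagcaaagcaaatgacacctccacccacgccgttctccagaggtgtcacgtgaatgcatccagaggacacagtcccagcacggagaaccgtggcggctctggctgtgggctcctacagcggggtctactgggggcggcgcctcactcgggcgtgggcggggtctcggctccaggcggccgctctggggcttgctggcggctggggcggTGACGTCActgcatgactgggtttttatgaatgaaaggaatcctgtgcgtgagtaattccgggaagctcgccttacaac

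Motifs were searched on both strands and are descriptions of letters, not of bound sites. TGACG was found for 5 genes, Atf3, Fos, Fosb, Junb and Maff, and in 20.8% of all 32851 promoters of the same length. Its 2 Fos matches lie at -129 and -66 from the start, and the Atf3 match, on the reverse strand, at -7 to -3. TGACNTCA, which overlaps TGACG where N is G, was found for Jun as TGACATCA at -45 to -38 and for the second start of Maff as TGACGTCA at -29 to -22. The third start of Maff, not shown, also holds TGACATCA at -45 to -38. The motif is in 8.83% of all promoters. TGATGNAA was found for Atf3 alone among the 9 genes, on the reverse strand at -110 to -103, against 3.97% of all promoters. The AP-1 element TGANTCA was found in none of the 9 genes' windows and in 7.81% of all promoters, and the CArG box bound by SRF in none and in 1.63%. The TATA box letters TATAAA were found in the windows of Fos, at -33 to -28, and Junb, at 0 to 5 on the annotated start itself. They were found in 13.6% of all promoters. GGGCGG, a GC box, was found for 7 genes (Atf3, Batf3, Fos, Fosb, Fosl2, Jun and Maff) and in 35.7% of all promoters. The GC content of the windows was highest for Batf3 (75.7%) and lowest for Jund (46.7%).

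Expression is given as FPKM, fragments scaled to the length of the gene and the size of the library, as the authors deposited it, which allows levels of different genes to be compared per length. Across the table, 27746 genes were listed at 0 in all libraries and 11110 had 1 FPKM or more in 5 or more of the 10 libraries and were tested with limma. FPKM sums lay between 442183 and 484461 per library, and read totals are not given. Melanoma is the origin given by the tissue label and the design text, while the treatment text and library names point to a colon tumour. Of 13 colon epithelium markers, none passed the filter and 10 stayed under 0.1 FPKM in all libraries. Their summed level was 1.40 to 1.74 FPKM in MC38.T4 and 0.256 to 0.495 FPKM in MC38, with Cdx2 at 0 in all and Cdh1 at 1.00 ± 0.070 FPKM in MC38.T4 and 0.0212 ± 0.0080 FPKM in MC38 (SD, n = 5 each). Of 7 melanocyte markers 1 passed the filter, and their sums were 1.85 to 2.07 FPKM in MC38.T4 and 1.19 to 1.52 FPKM in MC38, with Tyr at 0 in all and Mitf at 1.74 ± 0.096 FPKM in MC38.T4 and 0.781 ± 0.14 FPKM in MC38 (SD, n = 5 each). Mitf passed the filter through its MC38.T4 values alone. Below the filter, Pmel went the other way without overlap, at 0.178 FPKM in MC38.T4 and 0.522 FPKM in MC38. Apart from Mitf, Pmel and, in MC38.T4, Cdh1, most markers of both named tissues were at or near 0.

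All 10 genes had a lower mean FPKM in MC38.T4 than in MC38, and for 8 of the 10 the libraries of the lines did not overlap. Atf3 was almost absent from MC38.T4 and abundant in MC38, Batf3 had an MC38.T4 mean of 0.0860 of the MC38 mean, and Maff, Jund, Junb, Fosl2 and Fosl1 had MC38.T4 means between 0.381 and 0.606 of the MC38 mean. Jun, the highest of the 10 in MC38.T4, had a ratio of 0.893 with overlapping libraries. Fos and Fosb stayed under 1 FPKM in every library. 8 of the 10 passed the FPKM filter, all but Fos and Fosb, and all 8 were called lower by limma at an adjusted p under 0.05. Of these 8, 7 had no overlap, and the other gene without overlap was Fosb. Among all tested genes 86.0% were called in either direction, 42.9% lower and 43.1% higher in MC38.T4, and 38.9% were lower with no overlap. The genes were chosen on this contrast, so nothing is read from these counts. The median difference on the log2(FPKM + 1) scale was -0.93 over the 8 genes and 0.00 over all tested genes, whose median absolute difference was 0.47. These are bulk samples, so fewer cells with an RNA and less RNA per cell cannot be told apart.

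**Figure D1:**
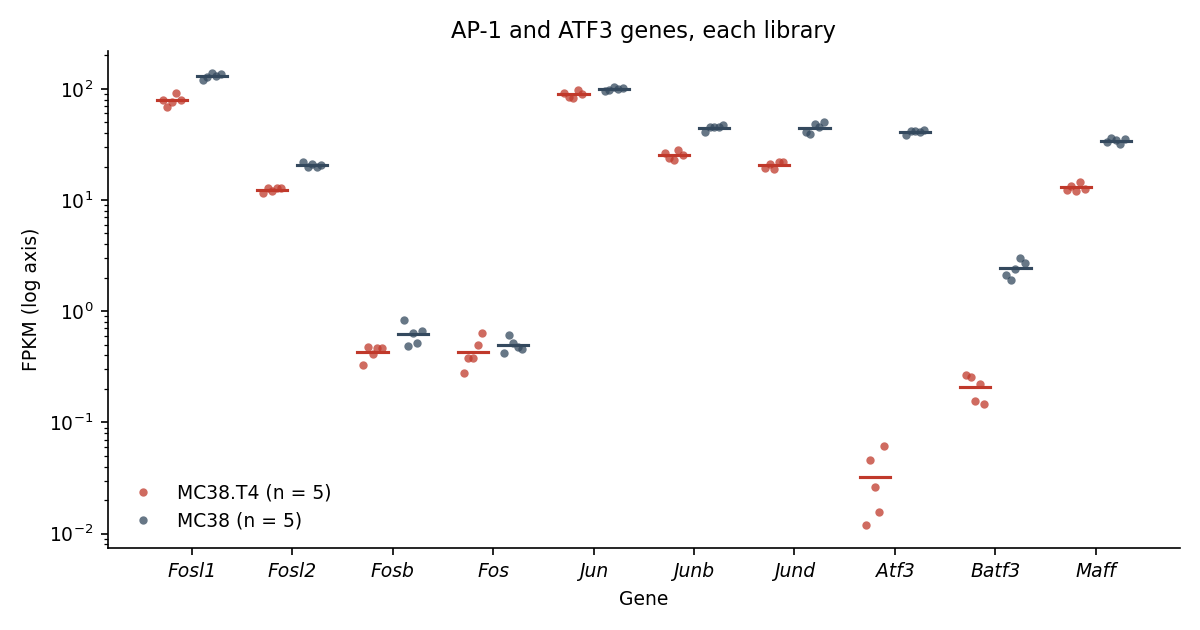
FPKM of each AP-1 and ATF3 gene in each library on a log axis, with MC38.T4 (n = 5) left of MC38 (n = 5) for each gene; points are libraries and bars are line means. Atf3 stands near 0.0322 FPKM in MC38.T4 and near 41.0 FPKM in MC38, while the point clouds of Jun and of Fos overlap between the lines.

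Atf3 was at 0.0119, 0.0458, 0.0261, 0.0156 and 0.0615 FPKM in MC38.T4 replicates 1 to 5, against 38.0, 41.9, 42.0, 40.6 and 42.3 FPKM in MC38 replicates 1 to 5. Every MC38 library was far above every MC38.T4 library, and the lines did not overlap. The means were 0.0322 ± 0.021 FPKM in MC38.T4 and 41.0 ± 1.8 FPKM in MC38 (SD, n = 5 each). The MC38 mean was 1274 times the MC38.T4 mean, and the difference of -5.35 (SE 0.031) on the log2(FPKM + 1) scale was the lowest of all 11110 tested genes. That scale understates the difference, since all MC38.T4 values lie far under the added 1. None of the MC38.T4 libraries was at 0, but with the read totals not given, the number of reads behind these low values is unknown.

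Batf3 was at 0.266, 0.255, 0.155, 0.222 and 0.146 FPKM in the MC38.T4 libraries, against 2.14, 1.90, 2.41, 2.99 and 2.72 FPKM in the MC38 libraries. All MC38 libraries were above all MC38.T4 libraries, and Atf3 and Batf3 passed the filter through their MC38 values alone, so both had to differ. The means were 0.209 ± 0.056 FPKM in MC38.T4 and 2.43 ± 0.44 FPKM in MC38, a ratio of 0.0860 and a log2 difference of -1.50 (SE 0.088). BATF3 is a marker factor of conventional dendritic cells, so the other markers of that cell type were read beside it. Of 7 such genes, Xcr1, Flt3, Itgax and Irf8 stayed under 0.1 FPKM in all libraries and Cd209a was at 0 in all. The markers that passed the filter were Zbtb46, at 2.62 ± 0.31 FPKM in MC38.T4 and 3.31 ± 0.22 FPKM in MC38, and Clec9a, at 4.30 FPKM in MC38.T4 and 0.941 FPKM in MC38. The summed level of the 7 was 6.38 to 7.40 FPKM in MC38.T4 and 3.97 to 4.41 FPKM in MC38. This sum followed Clec9a, while Zbtb46 was lower in MC38.T4, as Batf3 was. Whether such cells have a part in the Batf3 values was not tested.

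Maff was at 12.3, 13.4, 12.2, 14.5 and 12.6 FPKM in the MC38.T4 libraries, against 33.4, 35.9, 34.6, 31.6 and 35.3 FPKM in the MC38 libraries. The highest MC38.T4 library, replicate 4, was at less than the lowest MC38 library, also replicate 4. The means were 13.0 ± 0.96 FPKM in MC38.T4 and 34.2 ± 1.7 FPKM in MC38, a ratio of 0.381 and a log2 difference of -1.33 (SE 0.054). Summed over Atf3, Batf3 and Maff, the level was 13.3 ± 0.98 FPKM in MC38.T4 and 77.6 ± 3.0 FPKM in MC38, and nearly all of the MC38.T4 sum was Maff.

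In the Fos family, whose proteins cannot pair with each other and need a Jun partner to bind AP-1 sites, Fosl1 supplied most of the RNA in both lines. Fosl1 was at 79.1, 69.0, 75.4, 91.4 and 80.0 FPKM in the MC38.T4 libraries, against 120.5, 127.1, 137.7, 130.7 and 135.6 FPKM in the MC38 libraries. The lines did not overlap, and the nearest libraries were MC38.T4 replicate 4 and MC38 replicate 1. The means were 79.0 ± 8.15 FPKM in MC38.T4 and 130.3 ± 6.9 FPKM in MC38, a ratio of 0.606 and a log2 difference of -0.72 (SE 0.073).

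Fosl2, which codes for FRA-2, another Fos protein without the strong transactivation domain of c-FOS, was at 11.6, 12.8, 12.0, 12.8 and 12.7 FPKM in the MC38.T4 libraries, against 21.8, 19.7, 20.9, 20.0 and 20.7 FPKM in the MC38 libraries. Libraries of each line lay close together and far from the other line. The ratio of the means, 12.4 ± 0.56 FPKM in MC38.T4 over 20.6 ± 0.84 FPKM in MC38, was 0.601, near that of Fosl1, and the log2 difference was -0.69 (SE 0.037).

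Fos, the classical serum-response gene, was at 0.281, 0.377, 0.378, 0.493 and 0.640 FPKM in the MC38.T4 libraries, against 0.418, 0.617, 0.521, 0.474 and 0.457 FPKM in the MC38 libraries. The ranges overlapped, and the single highest value was in MC38.T4 replicate 5. Fosb was at 0.327, 0.478, 0.414, 0.463 and 0.470 FPKM in MC38.T4, against 0.837, 0.490, 0.641, 0.516 and 0.667 FPKM in MC38. Its ranges did not overlap, but the highest MC38.T4 library and the lowest MC38 library were 0.478 and 0.490 FPKM, just apart. Both genes lay below the filter, and their log2 differences were -0.07 (SE 0.069) for Fos and -0.19 (SE 0.061) for Fosb. The Fos value rested on single libraries, at -0.03 without MC38.T4 replicate 1, -0.04 without MC38 replicate 2 and -0.12 without MC38.T4 replicate 5.

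Summed over the family, Fos RNA was 92.2 ± 8.3 FPKM in MC38.T4 and 152.0 ± 6.7 FPKM in MC38, with ranges of 82.7 to 105.1 FPKM in MC38.T4 and 143.5 to 159.8 FPKM in MC38. The composition of that sum was nearly the same in both lines. Fosl1 made up 85.6 ± 1.4% in MC38.T4 and 85.7 ± 0.98% in MC38, Fosl2 13.5 ± 1.3% in MC38.T4 and 13.6 ± 0.90% in MC38, and Fos and Fosb each stayed under 1% in the mean of each line.

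In the Jun family, whose proteins can pair with themselves or with Fos and ATF proteins, the level of Jun differed little between the lines while Junb and Jund were lower in MC38.T4. Jun was at 92.2, 84.4, 83.5, 97.4 and 89.1 FPKM in the MC38.T4 libraries, against 96.3, 96.8, 104.3, 100.1 and 102.3 FPKM in the MC38 libraries. The ranges overlapped because MC38.T4 replicate 4 was above MC38 replicates 1 and 2. The means were 89.3 ± 5.7 FPKM in MC38.T4 and 99.98 ± 3.4 FPKM in MC38, a ratio of 0.893 and a log2 difference of -0.16 (SE 0.046).

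Junb, often an antagonist of JUN in proliferation, was at 26.4, 23.9, 22.9, 28.1 and 25.6 FPKM in the MC38.T4 libraries, against 40.6, 44.9, 45.7, 44.9 and 47.6 FPKM in the MC38 libraries. The lines did not overlap, with MC38.T4 replicate 4 and MC38 replicate 1 nearest to each other. The means of 25.4 ± 2.0 FPKM in MC38.T4 and 44.8 ± 2.6 FPKM in MC38 gave a ratio of 0.567 and a log2 difference of -0.80 (SE 0.062).

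Jund, the Jun gene that most cells express steadily, was at 19.4, 21.1, 19.1, 21.9 and 21.9 FPKM in the MC38.T4 libraries, against 40.5, 39.2, 48.1, 45.1 and 50.5 FPKM in the MC38 libraries. MC38 replicates spread more than MC38.T4 replicates, and there was no overlap. The means were 20.7 ± 1.4 FPKM in MC38.T4 and 44.7 ± 4.8 FPKM in MC38, with a ratio of 0.462 and a log2 difference of -1.07 (SE 0.080), the largest in the Jun family.

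The Jun family sum was 135.4 ± 8.5 FPKM in MC38.T4 and 189.4 ± 10.2 FPKM in MC38, and here the composition differed. Jun made up 65.3 to 66.8% of it in MC38.T4 and 51.0 to 54.3% in MC38. Junb made up 18.3 to 19.2% in MC38.T4 and 22.9 to 24.8% in MC38, and Jund 14.0 to 16.3% in MC38.T4 and 21.7 to 25.2% in MC38. None of these share ranges overlapped between the lines. The shares derive from the contrast that chose the genes and have no test.

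**Figure D2:**
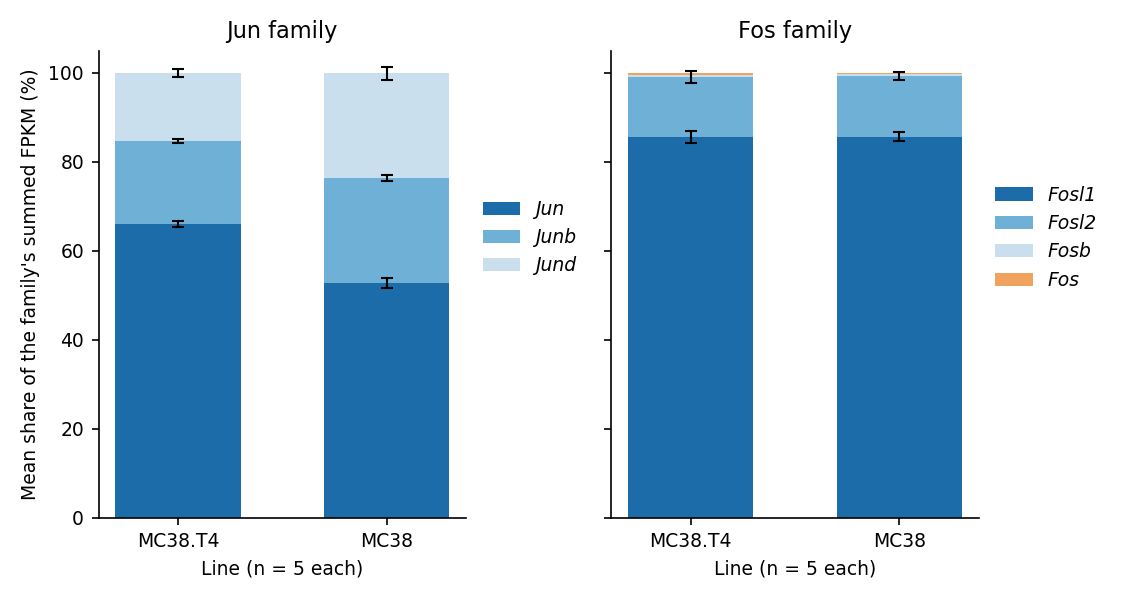
Mean share of each family's summed FPKM (percent) by gene, MC38.T4 left of MC38 (n = 5 each), with error bars of 1 SD over libraries. Jun takes 66.0% of the Jun family in MC38.T4 and 52.8% in MC38, while Fosl1 takes 85.6% of the Fos family in MC38.T4 and 85.7% in MC38.

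In FPKM, the order from high to low in MC38.T4 was Jun, Fosl1, Junb, Jund, Maff, Fosl2, Fos, Fosb, Batf3 and Atf3. In that order the neighbours Jun and Fosl1, Maff and Fosl2, and Fos and Fosb had overlapping libraries. In MC38 the order was Fosl1, Jun, Junb, Jund, Atf3, Maff, Fosl2, Batf3, Fosb and Fos. There Junb overlapped Jund, Jund overlapped Atf3, and Fosb overlapped Fos. Fosl1 was above Jun in every MC38 library, and Atf3 was 5th in MC38 but last in MC38.T4. Atf3 made up 0.0136% of the 10-gene sum in MC38.T4 and 9.79% in MC38, while Jun made up 37.1% in MC38.T4 and 23.9% in MC38. The whole sum was 240.9 ± 17.0 FPKM in MC38.T4 and 419.0 ± 18.7 FPKM in MC38, a ratio of 0.575.

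Within MC38.T4, most of the genes shared their highest library. Replicate 4 was the highest MC38.T4 library for 6 of the 8 genes past the filter, namely Fosl1, Fosl2, Jun, Junb, Jund and Maff, against 22.3% of all tested genes. The same library was the lowest MC38.T4 library for 30.8% of all tested genes, the largest such share. In replicate 4, Fosl1 was at 115.7% of the MC38.T4 mean, Maff at 111.4%, Junb at 110.6% and Jun at 109.0%, while the median tested gene was at 99.06%. Replicate 3 was the lowest MC38.T4 library for Jun, Junb, Jund and Maff, against 17.4% of all tested genes. In MC38, replicate 1, which had the lowest FPKM sum, was the lowest library for Atf3, Fosl1, Jun and Junb. It was also the lowest MC38 library for 29.8% of all tested genes. Leaving out MC38.T4 replicate 4 and MC38 replicate 1 together, a choice made after seeing the data, gave ratios of 0.572 for Fosl1, 0.865 for Jun, 0.540 for Junb, 0.445 for Jund and 0.368 for Maff. The ratio of the 10-gene sum was then 0.551. These libraries held the highest MC38.T4 or the lowest MC38 value of many of these genes. Leaving them out was thus bound to lower most ratios and is no check of the direction. What set replicate 4 apart was not tested.

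**Figure D3:**
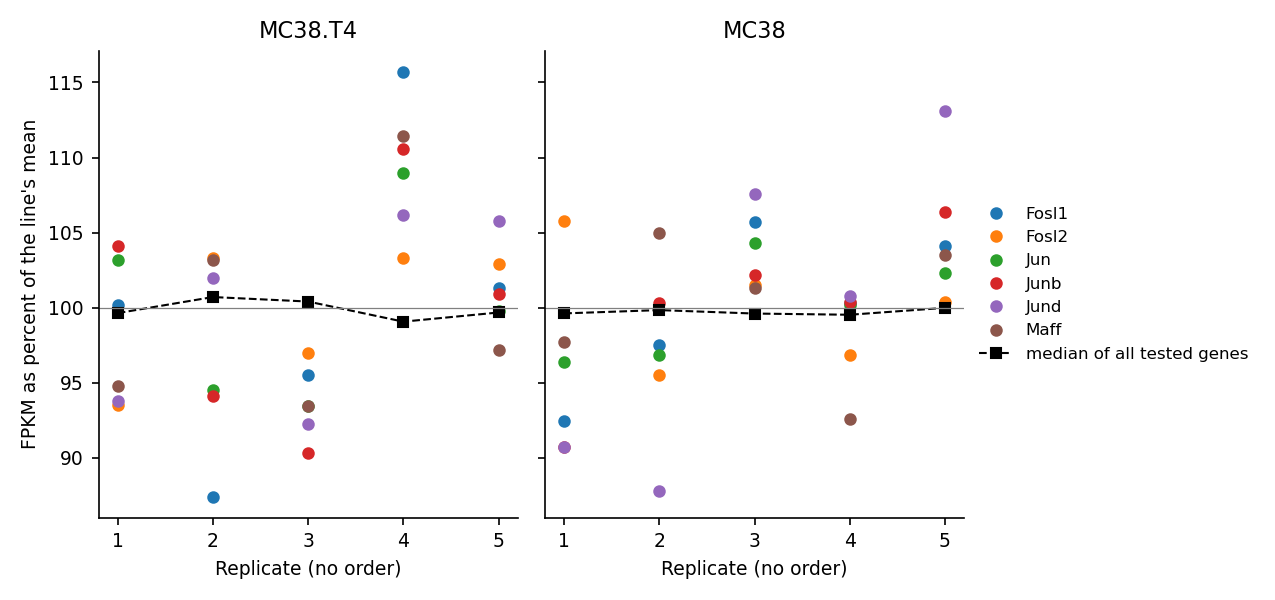
FPKM of the 6 genes above 5 FPKM in both lines as a percent of the mean of their line (MC38.T4 left, MC38 right), by replicate number, which has no order; black squares joined by a dashed line are the median of all tested genes. In MC38.T4 replicate 4 all 6 genes lie above 103%, with the median tested gene at 99.06%.

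Atf3 and Batf3 lie on the same chromosome 1 segment, with 4 genes between them in RefSeq order, none of which was tested, so no tested gene lies between them. Of the 3 tested genes on each side of Atf3, Batf3 is a member, and of the other 5, 4 were called lower and 1 higher in MC38.T4. The higher one was a long noncoding RNA gene model next to Atf3, at 2.39 ± 0.47 FPKM in MC38.T4 and 0.914 ± 0.42 FPKM in MC38 (log2 difference 0.84, limma adjusted p = 0.000171). Among MC38 libraries only replicate 2 reached 1 FPKM, so this gene passed the filter through its MC38.T4 values and its p-value is of limited use. Nsl1, a kinetochore gene, was at 6.57 FPKM in MC38.T4 and 10.5 FPKM in MC38 (log2 difference -0.60, limma adjusted p = 4.16e-09). Nenf, which codes for the secreted protein neudesin, was at 29.3 FPKM in MC38.T4 and 52.5 FPKM in MC38 (-0.82, limma adjusted p = 1.91e-07). Tatdn3, a putative nuclease gene, was at 2.70 FPKM in MC38.T4 and 3.54 FPKM in MC38 (-0.28, limma adjusted p = 0.00759).

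Pacc1, an acid-activated chloride channel gene, was the remaining counted neighbour of Atf3 called lower, by a log2 difference of -1.06 (limma adjusted p = 1.02e-11). Flvcr1, a heme and choline transporter gene, was the next tested gene beyond Tatdn3 and was lower by -1.05 (limma adjusted p = 1.76e-11). Over 10 tested genes on each side of Atf3, a width chosen after seeing the data, the 19 genes other than Batf3 held 12 called lower and 6 called higher, with differences between -1.52 and 1.27 and a median of -0.28. None of these 19 came near the -5.35 of Atf3. Around all members together, 54 distinct neighbours that are no members held 27 called higher, 20 called lower and 7 not called, with a median log2 difference of 0.10. Of the 6 nearest tested genes, Junb had 5 called higher and 1 lower, Fosl2 had 1 higher and 5 lower, and Fosl1 had 4 higher and none lower.

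**Figure D4:**
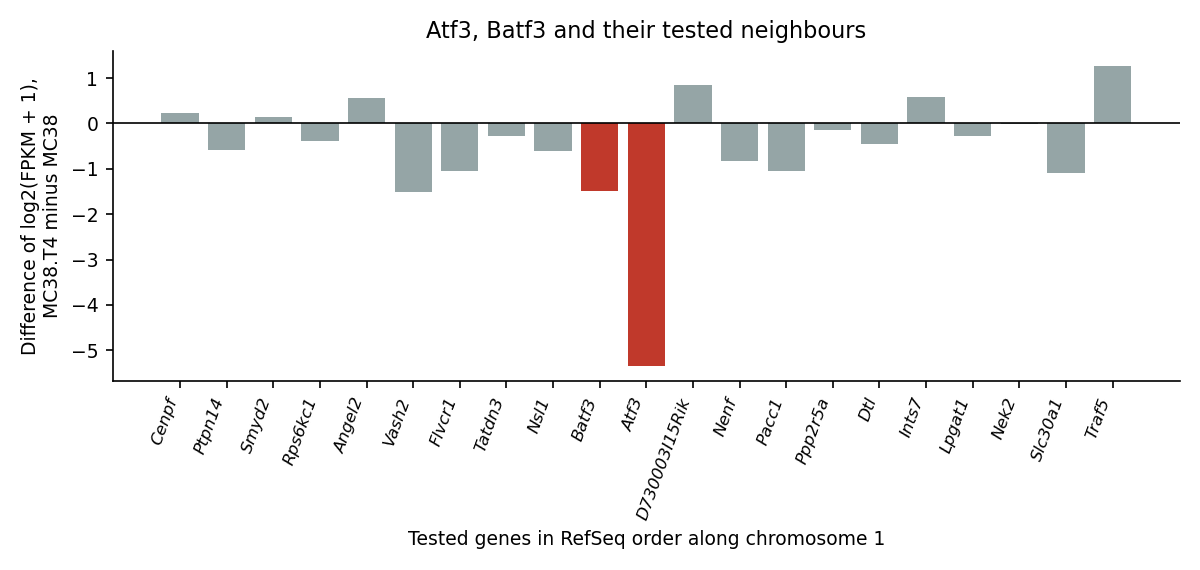
Difference of log2(FPKM + 1), MC38.T4 minus MC38, for Atf3, Batf3 (red) and their tested neighbours (grey) in RefSeq order along chromosome 1, not to distance. Atf3 at -5.35 and Batf3 at -1.50 are flanked by bars between -1.52 and 1.27.

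The other genes of the AP-1 system were counted in 6 lists, with calls from the fit over all 11110 tested genes and the background shares of 42.9% lower and 43.1% higher given above. Of 23 dimer partners and relatives, 19 were tested, 7 were called higher, 9 lower and 3 were not called, with a median log2 difference of 0.02. The 3 that differed most were all lower. Mafk, a small MAF gene like Maff, was at 10.1 to 10.7 FPKM in MC38.T4 and 38.7 to 42.1 FPKM in MC38 (log2 difference -1.88, limma adjusted p = 6.26e-16). Ddit3, which codes for the stress factor CHOP, was at 72.8 to 88.8 FPKM in MC38.T4 and 304.6 to 352.4 FPKM in MC38 (-2.06, limma adjusted p = 2.01e-14). Nfil3, a repressor of the same zipper class, was at 6.01 to 10.3 FPKM in MC38.T4 and 28.1 to 31.0 FPKM in MC38 (-1.92, limma adjusted p = 1.53e-08).

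In the other direction, Atf5 was higher by 0.67, Atf7 by 0.28 and Atf1 by 0.22 on the log2 scale, while Atf2, Jdp2 and Creb1 were not called. Atf2 and Jdp2 are partners with which JUN proteins bind cAMP response elements such as the capitalised one of Jun. The relatives differed in both directions.

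Upstream of AP-1, 28 of 31 listed kinase and phosphatase genes were tested, of which 12 were called higher, 12 lower and 4 were not called, with a median of 0.03. Araf, a RAF kinase gene of the ERK cascade, was at 17.7 FPKM in MC38.T4 and 5.21 FPKM in MC38 (1.59, limma adjusted p = 9.51e-14). Dusp16, a phosphatase gene that acts on JNK, was at 7.93 FPKM in MC38.T4 and 21.1 FPKM in MC38 (-1.30, limma adjusted p = 6.03e-13). Mapk11, a p38 kinase gene, and Map2k7, a JNK kinase gene, were higher by 1.02 and 0.76. Dusp10 was lower by a log2 difference of -0.46. Of 13 factors that act on the Fos and Jun promoters, all tested, 7 were called higher, 5 lower and 1 was not called. The gene not called was Srf, at 20.0 FPKM in MC38.T4 and 20.9 FPKM in MC38 (limma adjusted p = 0.319). Stat3 was at 33.6 FPKM in MC38.T4 and 15.6 FPKM in MC38 (1.06), and Crtc3, a CREB coactivator gene, at 7.01 FPKM in MC38.T4 and 18.9 FPKM in MC38 (-1.32).

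Of 16 listed genes for ubiquitin ligases and cofactors of Jun and Fos proteins, 13 were tested; limma called 10 lower and 0 higher, with 3 not called and a median of -0.33. At an unadjusted p under 0.05 the count of higher genes was also 0. The coactivator genes Crebbp, at 5.17 FPKM in MC38.T4 and 10.9 FPKM in MC38 (-0.94), and Ep300, at 13.5 FPKM in MC38.T4 and 26.3 FPKM in MC38 (-0.91), differed most. The Jun and Fos proteins themselves were not measured.

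The other immediate-early genes, induced by the same stimuli as Fos and Jun, were mostly lower: of 46 listed, 41 were tested, 30 (73.2%) were called lower, 9 (22.0%) higher and 2 were not called, with a median log2 difference of -0.68. In 28 of the 41 the MC38.T4 libraries lay below the MC38 libraries with no overlap, against 38.9% of all tested genes. Gadd45a, a growth arrest and DNA damage gene, was at 29.7 to 60.3 FPKM in MC38.T4 and 338.0 to 374.3 FPKM in MC38 (-3.25, limma adjusted p = 1.59e-07). Myc was at 57.7 ± 9.2 FPKM in MC38.T4 and 301.6 ± 13.0 FPKM in MC38 (-2.38), and Klf6, a Kruppel-like factor gene, at 28.3 ± 1.1 FPKM in MC38.T4 and 146.1 ± 7.9 FPKM in MC38 (-2.33, limma adjusted p = 6.38e-16).

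Immediate-early genes called higher were Ier5l (0.55), Socs3 (0.55), Homer1 (0.50) and 6 more. Egr1, like Fos a serum-response gene, was at 17.9 FPKM in MC38.T4 and 18.3 FPKM in MC38 and was not called (limma adjusted p = 0.602). Replicate 4 was the highest MC38.T4 library for 26 of the 41 genes (63.4%), the library that was also highest for Fosl1, Jun and Junb. Replicate 1 was the lowest MC38 library for 15 of the 41 (36.6%), near the 29.8% of all tested genes. Without MC38.T4 replicate 4 and MC38 replicate 1, 32 were called lower and 8 higher. That choice, made after seeing the data, favours lower calls and is no check of the count.

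Genes with described AP-1 sites differed in both directions. Of 40 listed, 31 were tested, 15 were called higher and 12 lower, 4 were not called, and the median was 0.12. Spp1, which codes for osteopontin, was at 627.6 ± 63 FPKM in MC38.T4 and 12.4 ± 1.5 FPKM in MC38 (5.56). The chemokine gene Ccl2 was at 184.6 ± 19 FPKM in MC38.T4 and 5.21 ± 0.61 FPKM in MC38 (4.90), and the gelatinase gene Mmp9 at 32.0 ± 1.0 FPKM in MC38.T4 and 0.959 ± 0.055 FPKM in MC38 (4.07). Plaur, the urokinase receptor gene, was at 17.3 ± 1.1 FPKM in MC38.T4 and 74.3 ± 5.1 FPKM in MC38 (-2.04). Vegfc (-1.97) and Hmox1 (-1.37) were also lower. Of 7 fibroblast markers, the 3 that passed the filter, Dcn, Pdgfra and Col1a2, were higher in MC38.T4. Col1a2, at 1.855 FPKM in MC38.T4 and 0.0429 FPKM in MC38, passed through its MC38.T4 values alone, so it had to differ. The summed level of the 7 was 79.6 to 89.9 FPKM in MC38.T4 and 28.0 to 31.4 FPKM in MC38. Most of it was Dcn, at 58.1 FPKM in MC38.T4 and 16.8 FPKM in MC38, and Pdgfra, at 24.54 FPKM in MC38.T4 and 12.45 FPKM in MC38. Below the filter, Col1a1 and Lum had higher MC38.T4 means, Fap had a lower one, and Thy1 was at 0 in all libraries. The part of these markers in the differences above was not tested.

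**Figure D5:**
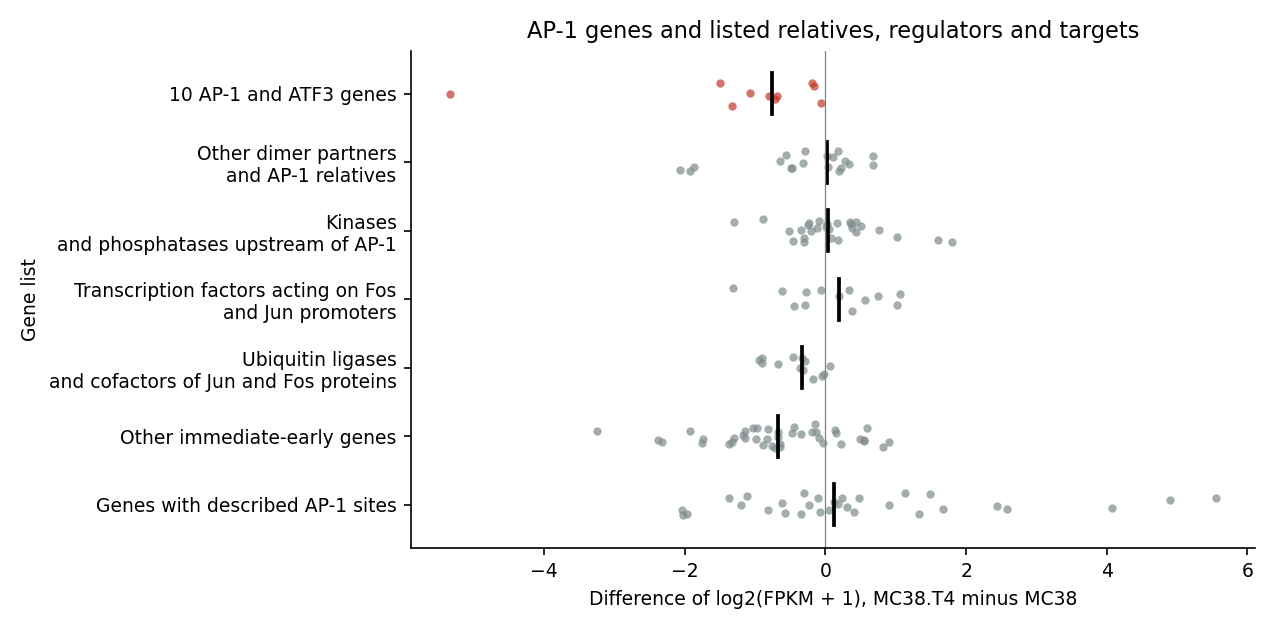
Difference of log2(FPKM + 1), MC38.T4 minus MC38, for the 10 AP-1 and ATF3 genes (red) and for the tested genes of each of the other 6 lists (grey), with black bars at the medians. The immediate-early list has its median at -0.68, while the lists of dimer partners, of kinases and of genes with AP-1 sites have theirs at 0.02, 0.03 and 0.12.

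Genes were also ranked by how like their pattern over the 10 libraries was to that of each member. The measure was the root mean square difference of log2(FPKM + 1) after centring each gene on its own mean. Levels still play a part, since the added 1 shrinks the differences of genes at low FPKM. Plekhm3, at 0.509 FPKM in MC38.T4 and 1.40 FPKM in MC38, thus came nearest to Fosl2 at another ratio of means. The pattern nearest to Atf3 was that of Cyba, an NADPH oxidase subunit gene, at 0.65, with 0.0067 FPKM in MC38.T4 and 16.0 FPKM in MC38. Cdsn (0.87) and Gnpda2 (0.96) came next. The distances for the other members were smaller. The patterns nearest to Fosl1 were Recql4 (0.06), Atxn2 (0.07) and Ier3 (0.07), those nearest to Jun included Rgma (0.03) and Ube2o (0.04), and the nearest to Junb was Them4 (0.05). The nearest gene to Jund was Kdm6b (0.07), to Maff Psmd8 (0.05), to Fosl2 Plekhm3 (0.03) and to Batf3 Tmem171 (0.10).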

How the data were processed

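PolyA-selected RNA was made into strand-marking libraries with a TruSeq stranded mRNA kit, per the labels' protocols. The authors deposited 1 table of FPKM with a gene symbol per row and a column per library, and each of the 10 columns was mapped to a sample by its label. The submitters' processing notes name GRCm39 and DESeq2. Aligner, counting program, strand setting and annotation were not given in the sources used here, so reads of overlapping or antisense genes may be mixed. FPKM keeps no read counts, so no counting interval was given and no count test was run.

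Genes with 1 FPKM or more in 5 or more of 10 libraries were tested on log2(FPKM + 1), MC38.T4 minus MC38, with limma 3.58.1 in R 4.3.3 (trend and robust moderation, two-sided, Benjamini-Hochberg adjustment, threshold 0.05). An SE beside a member is that of the unmoderated difference of means. Python 3.11.15, pandas 2.3.3, NumPy 2.4.6 and matplotlib 3.10.9 made the descriptions and figures. Members and lists were chosen with earlier results of these data known. Motifs were chosen with the promoters in view. Named are all members, of each other list at most 3 genes in each direction with the largest difference at a mean FPKM of at least 5, the 3 tested genes on each side of members differing at least 4-fold, and the 3 genes most alike in their centred pattern; other genes named were singled out after their values were seen. Some genes that this rule picks are left out of the text. RefSeq sequences and gene order are of GRCm38.p6, another build than the table's. Alternative settings were no filter, a pseudocount of 0.1, a minimum FPKM of 5, TPM rescaling, quantile normalization, equal medians, plain eBayes, array weights, a replicate block and leaving out libraries.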

Additional observations from a re-analysis of the deposited data

How the results depend on the processing

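All 10 AP-1 and ATF3 genes stayed lower in MC38.T4 under every alternative that gave them a value. The pseudocount moved the low genes most: at 0.1 the log2 difference was -8.29 for Atf3, -3.04 for Batf3, -0.45 for Fosb and -0.19 for Fos. With each library left out in turn, Fos lay between -0.12 and -0.03 and Fosb between -0.22 and -0.14. Over all alternatives Fosl1 lay between -0.80 and -0.67, Fosl2 between -0.76 and -0.67, Jun between -0.21 and -0.14, Junb between -0.87 and -0.76, Jund between -1.14 and -1.03 and Maff between -1.41 and -1.31. Calls over all genes lay between 7683 (minimum FPKM of 5, 8806 genes tested) and 12725 (no filter, 26597 genes tested), and between 9408 and 9624 when each library was left out in turn. The count of higher ubiquitin ligase and cofactor genes was 2 with no filter, 1 with quantile normalization and 0 to 1 with a library left out (1 without MC38.T4 replicate 1 and 1 without MC38.T4 replicate 4), against 0 as reported. With a minimum FPKM of 5, 4 immediate-early genes were called higher, against 9, since fewer genes were tested. A replicate block gave 9534 calls. Deviations of same-numbered libraries correlated at 0.135, 0.142, -0.128, -0.129 and 0.014, and no MC38.T4 library correlated best with its own number, so the numbers were not taken as pairs. In groups of 5, no library of the values looked at stood apart by Dixon's criterion. Read depth is unknown, which limits what can be said of Atf3 in MC38.T4, Fos and Fosb.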
